A study of Mus musculus with 12 samples.

Results

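Predicted Gm genes are gene models that carry a running number in place of a descriptive name. The 226 examined here are those with the highest listed values in libraries of rod ribosome-bound RNA. They were chosen from the 56748 genes of the deposited table by their name (Gm and a number) and by a mean of at least 200 over the 6 rod libraries, and the Pkm copies Gm6560 and Gm6992 were left out by the rule. The table lists 25551 Gm genes, of which 6519 had a value above 0 in at least 1 rod library. A high level in rods is therefore the basis of the choice and not a finding, and it also favours genes with a high ratio of rods to retina. The last members inside the limit were Gm6767 with a mean of 202.63, Gm12960 with 203.45 and Gm12251 with 203.82, and the first genes outside it were Gm7072 with 197.43, Gm43737 with 195.6 and Gm13841 with 195.32.

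Rod ribosome-bound RNA (Rod-TRAP, called rods below) and total retinal RNA (input, called retina below) were sequenced from mouse eyes, with 3 libraries in each of 4 groups. All mice carried RiboTag, an HA-tagged ribosomal protein Rpl22 that is made only where Cre is active, and all carried the i75-Rod-Cre transgene, which is driven by the rhodopsin promoter. Control mice had 1 floxed and 1 wild-type Pkm2 allele (RiboTag, Pkm2 fl/+, i75-Rod-Cre), and Pkm2 Rodko mice had both alleles floxed (RiboTag, Pkm2 fl/fl, i75-Rod-Cre). The controls thus carry Cre and may lack 1 Pkm2 allele in rods. The deposited description gives an age of 2 weeks and the methods 2 months. Whether the 3 libraries of a group came from separate animals is not stated for each library, so p-values measure the spread between these libraries.

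Library totals ranged from 13458890 to 22790074 reads. Pkm, the targeted gene, was at 52140.7, 51049 and 54504 normalised reads in control rods and at 23751, 22552.6 and 22245.6 in those of Pkm2 Rodko mice, which gave a log2 fold change of -1.20 ± 0.0838 (SE; adjusted p = 5.36e-05, limma). In retina it was at 31189.6, 34233.7 and 31547.7 in controls and at 20106.8, 20328.1 and 21153.5 in Pkm2 Rodko mice, a log2 fold change of -0.65 ± 0.0742 (adjusted p = 0.0219). The values count all Pkm transcripts together, and they follow the genotype labels in all 12 libraries. All 20 rod markers had a higher level in rods than in retina in controls, with a median log2 ratio of 1.91, and all 10 Mueller glia markers had a lower one, with a median of -2.87.

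Many genes named in this way are processed pseudogenes, copies of a spliced messenger RNA that was reverse transcribed and inserted elsewhere in the genome. They arise most often from genes with abundant messenger RNA in the germ line, such as those for glycolytic enzymes and ribosomal proteins. A short read from the coding gene can align equally well to such a copy, so a value listed for a copy may hold reads of the coding gene. Other Gm genes are long noncoding RNAs, antisense transcripts, or pieces of mitochondrial DNA that were inserted into a nuclear chromosome. Glyceraldehyde-3-phosphate dehydrogenase (Gapdh) and enolase (Eno1) act in glycolysis, the pathway whose last step is catalysed by pyruvate kinase (Pkm).

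Of the 226 members, 143 were annotated in GENCODE vM21 (mouse build GRCm38) as processed pseudogenes, 13 as transcribed processed pseudogenes, 18 as antisense transcripts, 17 as lincRNAs, 17 as protein-coding genes and 8 as unprocessed pseudogenes. The remaining 10 were of rarer classes or, for Gm51425, not in that annotation. The submitters' processing notes name build GRCm39, so genes were matched by identifier and no coordinates are given. For 175 members the longest transcript matched a transcript of another gene at 90% identity or more over at least 50% of its length. A named protein-coding gene was the closest or nearly closest match for 170 of them, with 94 different coding genes in all. Of these 170 copies, 118 were at least 99% identical to the coding gene over the matched part and 27 were 100% identical. Among the 175 matched members a median of 68.3% of all stretches of 100 bases in the transcript also occurred exactly in another gene, and among the 50 unmatched members the median was 0%.

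Members were grouped by the coding gene that they matched, where there was one. Gapdh was matched by 39 members, genes of the mitochondrial genome by 7, ribosomal protein genes (Fau among them) by 30 and other coding genes by 94. The remaining 50 matched no other gene by these limits, 5 matched a gene without a closely matching named coding gene, and 1 was not in the annotation used. Of the 50, 2 still shared over 50% of their stretches of 50 bases with another gene, and 5 overlap an exon of another gene on the same strand. These groups were formed after the matches had been seen.

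Stretches of 120 bases from the coding part of a gene are shown beside the same stretch of its copies, 5′ to 3′ on the transcript strand, because they show how little sequence separates the listed genes. Each is the gap-free stretch with the most differences among the copies compared. Capitals mark bases that differ from the coding gene. Over the 999 coding bases of Gapdh, which lies on chromosome 6, Gm5559 on chromosome 5 differed at 1 base, Gm13394 on chromosome 2 at 1 and Gm7336 on chromosome 7 at 0, and all were identical to Gapdh in the stretch shown. Gm29667 on chromosome 1, the Gapdh copy with the lowest value, differed at 9 of the 458 coding bases it covers, 6 of them in the stretch shown.
Gapdh: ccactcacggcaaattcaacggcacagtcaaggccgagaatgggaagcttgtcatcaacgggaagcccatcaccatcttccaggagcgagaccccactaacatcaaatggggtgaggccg
Gm29667: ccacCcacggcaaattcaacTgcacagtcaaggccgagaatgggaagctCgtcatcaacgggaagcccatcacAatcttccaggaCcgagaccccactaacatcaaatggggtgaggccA
Gm4735 on chromosome 2 differed from Eno1 on chromosome 4 at 5 of 1302 coding bases, 2 of them in this stretch.
Eno1: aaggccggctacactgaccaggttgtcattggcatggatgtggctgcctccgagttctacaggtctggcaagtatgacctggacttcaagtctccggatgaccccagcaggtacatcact
Gm4735: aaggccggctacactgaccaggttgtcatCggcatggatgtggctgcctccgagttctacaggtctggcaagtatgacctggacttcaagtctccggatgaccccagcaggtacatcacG
Gm29216 on chromosome 1 covers 480 bases of the mitochondrial gene mt-Co1 and differed from it at 1 base. Gm10925, also on chromosome 1, had no difference from mt-Atp6 over 678 coding bases.
mt-Co1: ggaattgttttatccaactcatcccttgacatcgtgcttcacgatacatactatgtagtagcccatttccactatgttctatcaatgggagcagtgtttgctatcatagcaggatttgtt
Gm29216: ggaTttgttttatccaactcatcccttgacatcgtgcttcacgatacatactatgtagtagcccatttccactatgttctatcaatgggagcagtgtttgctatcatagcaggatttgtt
Gm10184 on chromosome 17 and Gm10259 on chromosome 3 differed from Kpna2 on chromosome 11 at 2 and 3 of 1587 coding bases.
Kpna2: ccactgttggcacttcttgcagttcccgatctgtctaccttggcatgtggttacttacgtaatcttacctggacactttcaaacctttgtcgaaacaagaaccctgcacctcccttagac
Gm10184: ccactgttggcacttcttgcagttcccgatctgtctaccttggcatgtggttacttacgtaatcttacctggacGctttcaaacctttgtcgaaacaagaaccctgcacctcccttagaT
Gm10259: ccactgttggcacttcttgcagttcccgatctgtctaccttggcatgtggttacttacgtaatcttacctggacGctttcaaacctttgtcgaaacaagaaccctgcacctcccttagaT
Gm4739 on chromosome 10 differed from Hmgb2 on chromosome 8 at 2 of 630 coding bases, both in this stretch.
Hmgb2: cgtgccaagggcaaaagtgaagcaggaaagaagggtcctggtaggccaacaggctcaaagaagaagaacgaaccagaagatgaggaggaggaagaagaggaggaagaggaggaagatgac
Gm4739: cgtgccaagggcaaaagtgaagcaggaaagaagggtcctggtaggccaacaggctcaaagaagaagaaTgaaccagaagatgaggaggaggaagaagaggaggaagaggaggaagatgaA
The first 100 bases of the transcripts of Gm47647 (chromosome 12), Gm26954 (chromosome 5), Gm47543 (chromosome 9) and Gm15564 (chromosome 16) are shown as a contrast, since none of their stretches of 50 bases occurred in another gene.
Gm47647: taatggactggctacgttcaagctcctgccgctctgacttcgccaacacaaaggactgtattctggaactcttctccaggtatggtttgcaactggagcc
Gm26954: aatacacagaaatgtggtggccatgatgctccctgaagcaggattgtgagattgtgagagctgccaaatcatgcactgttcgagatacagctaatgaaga
Gm47543: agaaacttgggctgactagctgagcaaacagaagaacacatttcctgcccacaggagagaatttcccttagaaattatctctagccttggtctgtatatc
Gm15564: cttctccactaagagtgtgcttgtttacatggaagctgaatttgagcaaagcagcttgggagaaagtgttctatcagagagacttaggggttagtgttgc

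The members together took between 1.296% and 1.503% of all reads in the rod libraries and between 2.731% and 3.217% in the retina libraries. The groups behind these shares differed between the fractions. Gapdh copies took 0.67% ± 0.0111 (SD, n = 3) of the reads in control rods and 0.4017% ± 0.0115 in control retina. Mitochondrial copies took 0.0853% ± 0.0192 of the reads in control rods and 2.118% ± 0.214 in control retina. Ribosomal protein copies took 0.0749% ± 0.0013 in control rods and 0.0883% ± 0.0052 in control retina, and members with no match took 0.155% ± 0.0047 and 0.1475% ± 0.0074.

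The mean level in rods had a median of 373.9 normalised reads over the members, and 49 members reached 1000 or more. Of the 12 members with the highest values, 10 matched Gapdh. Gm5559 led with 11798.6, 11154 and 11851.7 in control rods, 13233.4, 12370.7 and 11296.3 in Pkm2 Rodko rods, 6948.8, 7407.1 and 7243.2 in control retina and 7536.4, 7377.7 and 6874 in Pkm2 Rodko retina. Every rod library was above every retina library on this scale, and the genotypes overlapped in both fractions. Over the 6 rod libraries Gm7336 (10061.82), Gm13394 (9421.03), Gm12033 (9097.1), Gm12671 (7399.98), Gm2606 (7297.48), Gm10359 (7103.08), Gm12070 (6886.85), Gm14760 (6682.98) and Gm12537 (6005.58) were the other Gapdh copies among them. Gm4735, which matched Eno1b at 99.8% identity as well as Eno1, had a mean of 10713.03, and Gm12346, a copy of the chaperone gene Hsp90aa1, had a mean of 4642.7.

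The 39 Gapdh copies lay on 18 chromosomes, and 36 of them were annotated as processed pseudogenes. Gapdh itself was at 9117.9 ± 284 (SD, n = 3) in control rods, 9956.9 ± 653 in Pkm2 Rodko rods, 6461.5 ± 665 in control retina and 5854.3 ± 309 in Pkm2 Rodko retina. The copies summed to 114021 ± 4030 and 121050 ± 8940 in rods and to 70531 ± 2730 and 71584 ± 3160 in retina, in the same order of genotypes. In every one of the 12 libraries the copies together held more reads than Gapdh, between 10.37 and 12.54 times as many. Per 1000 bases of the longest coding transcript, Gapdh stood at 6716 normalised reads in rods, and 8 of the 39 copies were above it.

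Among the Gapdh copies, the highest held a nearly constant part of the reads across libraries, while the lowest varied more. Gm5559 held between 10.002% and 10.384% of the sum over the copies in all 12 libraries, and Gm29667, the lowest, held between 0.157% and 0.204%. Copies closer in sequence to Gapdh had higher values per 1000 bases. The 24 copies with 99% identity or more had a median of 3241 normalised reads per 1000 bases in rods and the lowest was 579.4, while the 15 copies below 99% had a median of 456.1 and the highest was 1131. Over the 39 copies Spearman's rho was 0.94 between identity and level per 1000 bases, and 0.89 between the share of the copy's 100-base stretches found in another gene and its level. These are descriptions across copies that share libraries, and possibly reads, and how the authors' counting treated reads with several alignments is not given in the sources used here.

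**Figure D1:**
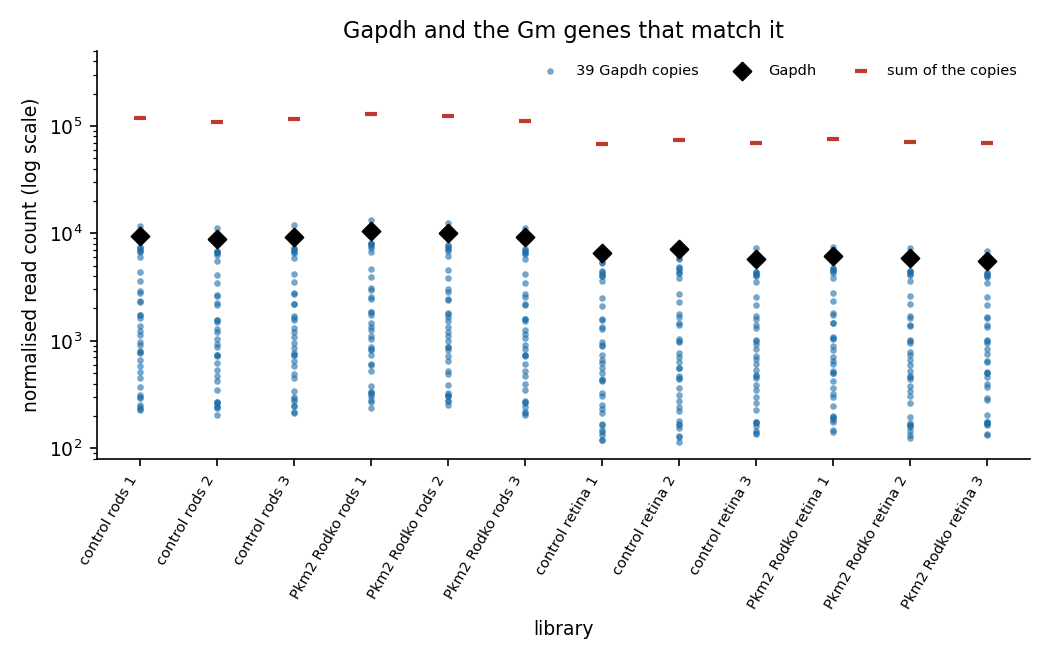
Normalised read count (log scale) of Gapdh (diamonds), of each of its 39 Gm copies (dots) and of the sum of the copies (dashes) in each of the 12 libraries. The sum of the copies was between 10.37 and 12.54 times Gapdh in every library.

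The deposited values of rods and retina were scaled separately, so the fractions were set on a common scale with TMM factors over all 12 libraries. On that scale the log2 ratio of control rods to control retina had a median of 0.67 over the members, with 203 of 226 above 0 (134 with scaling by total reads and 128 with the deposited values), beside a median of -0.29 over the 22539 genes with a mean scaled value of at least 1. The 7594 other genes with a rod mean of at least 200, which were chosen by the same level, had a median of 0.43, and the 25323 other Gm genes under the limit had a median of -0.55 over the 4471 that reached the filter. Relative to all genes the members' median was 0.97 higher with TMM and 0.90 higher with scaling by total reads, which lowered the median of all genes to -0.78. In bulk RNA a lower share of a cell type and less RNA per cell cannot be told apart. No test was made of this ratio, since the level in rods chose the members.

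**Figure D2:**
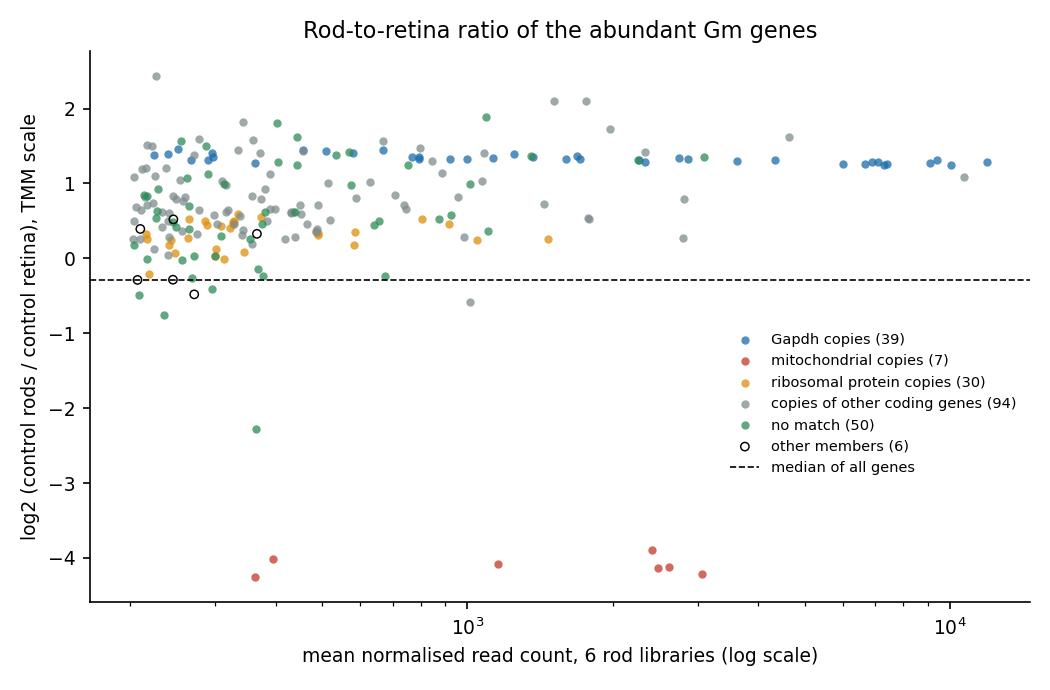
Log2 ratio of control rods to control retina on the TMM scale against the mean normalised read count over the 6 rod libraries (log scale), 1 point per member, coloured by the gene that it matches. The Gapdh copies lie between 1.24 and 1.46, the mitochondrial copies between -4.26 and -3.89, and the dashed line is the median of all genes at -0.29.

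The groups of members occupied different ranges of this ratio. The Gapdh copies lay in a narrow band from 1.24 to 1.46, all above the 1.10 of Gapdh. Copies of ribosomal protein genes had a median of 0.33 and ran from -0.20 to 0.59, and this median lay below 0 with scaling by total reads (-0.22) and with the deposited values (-0.26). Copies of other coding genes had a median of 0.72 and members with no match a median of 0.60. By the role of the coding gene, copies of nuclear import genes (Kpna2, Tnpo1 and Ran; 4 members) had a median of 1.45, those of glycolytic enzyme genes (42 members, 39 of them the Gapdh copies) 1.32, those of histone and chromatin protein genes (15 members) 1.20, those of chaperone genes (7 members) 0.79, those of hnRNP genes for RNA-binding proteins (12 members) 0.67, those of nuclear-encoded respiratory chain genes (9 members) 0.66 and those of splicing and RNA helicase protein genes (5 members) 0.98. The medians of translation factor (9 members) and tubulin copies (6 members) were 0.38 and 0.27 on the TMM scale but -0.17 and -0.28 with scaling by total reads and -0.21 and -0.32 with the deposited values. Under those scalings the median of hnRNP copies was 0.12 and 0.079, and that of respiratory chain copies 0.11 and 0.069.

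The 5 members with the highest ratio were Gm4739, Gm10184, Gm10259, Gm48551 and Gm11594. Gm4739 matches Hmgb2, which encodes a DNA-bending chromatin protein, and its deposited values were 235.8, 260.4 and 224.3 in control rods and 71.1, 68.2 and 59.2 in control retina, for a log2 ratio of 2.44 on the TMM scale beside 2.09 for Hmgb2. Gm10184, which matches Kpna2, an importin that carries proteins into the nucleus, was at 1736.4, 1703.5 and 1531.8 in control rods and at 558.1, 672.5 and 528.4 in control retina, a log2 ratio of 2.10. Gm10259 also matches Kpna2 and had the same rounded ratio of 2.10, beside 1.96 for Kpna2. All 3 of these members had higher values in each rod library than in any retina library of the same genotype.

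Gm48551 overlaps Dohh on the same strand and shares 80.2% of its stretches of 50 bases with other annotated genes. No gene of the deposited table met the limits for a match to it on the same strand. It was at 1091.4 ± 46.1 in control rods and 448.5 ± 50.5 in control retina, a log2 ratio of 1.88. Gm11594, identical to the matched part of Cabp4, which encodes a calcium-binding protein of photoreceptor synapses, was at 346.7 ± 53.1 and 146 ± 8.16, a log2 ratio of 1.82 beside 1.74 for Cabp4.

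The 5 members with the lowest ratio, and 7 in all, were copies of the mitochondrial genome that are annotated on chromosome 1. Gm10222 (mt-Nd4l), Gm10925 (mt-Atp6), Gm28437 (mt-Co3), Gm28661 (mt-Co2) and Gm28439 (mt-Nd4) had log2 ratios of -4.26, -4.21, -4.13, -4.12 and -4.08, and Gm28438 (mt-Nd3) and Gm29216 (mt-Co1) followed at -4.01 and -3.89. The mitochondrial genes encode subunits of the respiratory chain and of ATP synthase and are translated on ribosomes inside the mitochondrion, which do not contain Rpl22. Gm10925 was at 104314.4, 90038.8 and 97226 in control retina and at 2885.9, 4444.4 and 3238.7 in control rods. The mitochondrial genes that they match had log2 ratios between -4.28 and -4.00. Per 1000 bases in rods Gm10925 stood at 4527 and mt-Atp6 at 3488 normalised reads, Gm28661 at 3841 and mt-Co2 at 3849, and Gm29216 at 4896 and mt-Co1 at 6858.

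The next lowest members matched no other gene. Gm37583, a gene model that awaits experimental proof (class TEC), was at 276.8, 451.6 and 325.3 in control rods and at 2701, 2589.8 and 2301.4 in control retina, a log2 ratio of -2.28. Gm50240, antisense to Btbd9, had a log2 ratio of -0.76. The values of these genes were higher in every retina library than in any rod library.

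Copies followed their coding gene in the ratio of rods to retina. Over the 163 copies of nuclear genes Pearson's r between the log2 ratio of the copy and that of the coding gene was 0.90 and Spearman's rho 0.92, given as a description since the points share libraries, coding genes and possibly reads. The median distance between a copy and its coding gene was 0.16 over all 170 copies, 131 lay within 0.25 and 166 within 0.5. Gm8325, Gm11847 and Gm9242 were among those farther away, and were named after their values were seen. Gm8325 was at 1474 ± 132 in control rods, while Ube2v1, which it matches at 99.528% identity over 93.6% of its transcript (it is also close to Gm20431), was listed at 1.3, 2.2 and 1.2. Gm11847 and Gm9242 both match Hnrnpa3.

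**Figure D3:**
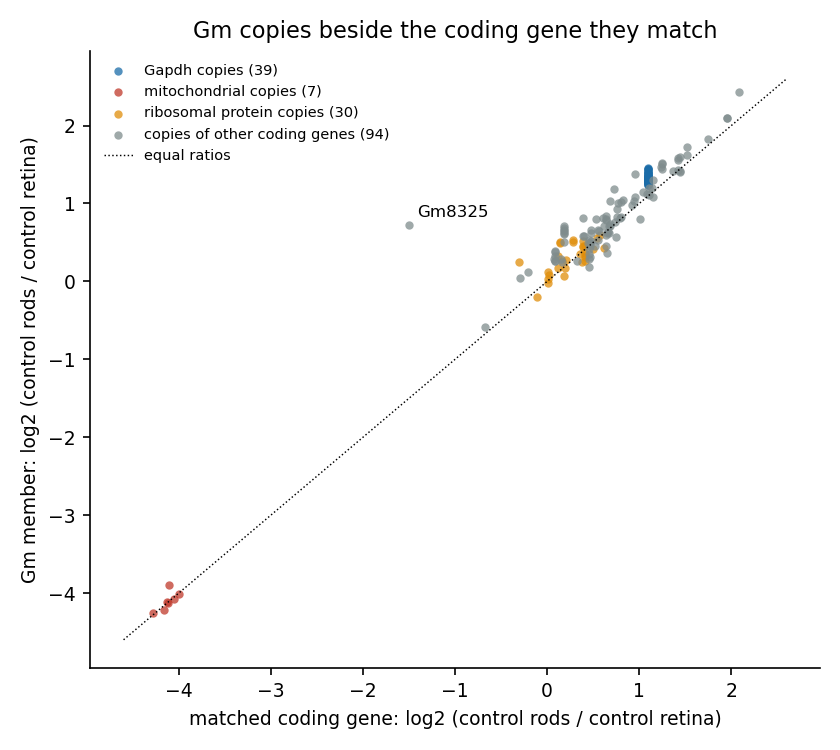
Log2 ratio of control rods to control retina on the TMM scale for the 170 Gm copies (vertical axis) and for the coding gene that each matches (horizontal axis), 1 point per copy, with a dotted line of equal ratios. Most copies lie close to the line, 166 of 170 within 0.5, and Gm8325 stands farthest from it, at 0.72 on the vertical axis.

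Levels of copies per 1000 bases had a median of 33.9% of the level of the coding gene in rods, with 31 copies at or above their coding gene and 31 below 10% of it. The longest protein-coding transcript served as the length of the coding gene, which lowers its level per 1000 bases where that transcript is long. In read numbers, the 5 copies of Rpl21 held 1.73 times and the 3 copies of Rpl23a 1.25 times the reads of the coding gene in rods, and the 7 copies of Hnrnpa3 1.28 times in rods and 0.86 times in retina. The 5 copies of Eef1a1, which encodes a translation elongation factor, held 0.136 times its reads in rods, and the 2 copies of Kpna2 0.285 times.

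The 50 members without a match were 18 antisense transcripts, 15 lincRNAs, 5 protein-coding genes and 12 of other classes. On the TMM scale 40 of the 50 had a higher level in rods than in retina in controls, against 26 with scaling by total reads and 25 with the deposited values. Of the 7594 other genes with a rod mean of at least 200, 5760 had a higher level in rods on the TMM scale. Gm47647, annotated as a transcribed processed pseudogene, had the highest value, with 3375.4, 2351.3 and 3630.6 in control rods, 3475.1, 2695.8 and 3017.9 in Pkm2 Rodko rods, 2108.8, 1486.8 and 1912 in control retina and 2098.2, 1482.2 and 1869.4 in Pkm2 Rodko retina. The library numbered 2 was the lowest in each of the 4 groups. Gm26954, antisense to Pclo, the gene of a large scaffold protein of the presynaptic active zone, was at 2323.8 ± 207 in control rods and 1411 ± 126 in control retina, with a log2 ratio of 1.32. The lincRNA Gm47543 was at 1320.4 ± 54.3 and 777.5 ± 66.5, with a log2 ratio of 1.36. Where counting did not use strand, reads of an antisense gene and of its partner cannot be told apart, and 15 of the 50 overlap an exon on the opposite strand.

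Gm15564, an antisense transcript of chromosome 16, was set by single libraries. It was at 166.6, 108 and 1338.4 in control rods, 611.3, 81.5 and 105.4 in Pkm2 Rodko rods, 93.5, 167.3 and 121.8 in control retina and 115, 68.7 and 98.3 in Pkm2 Rodko retina. One library of each rod group was high, the other rod libraries lay within or near the range of retina, and the genotypes overlapped. Its log2 ratio of control rods to control retina was 1.81 with all libraries, 0.70 without control rods replicate 3 and 2.52 without control rods replicate 2, and it was the only one of the 226 members whose ratio moved by over 1.5-fold when 1 control library was left out. Among the members it had the lowest genotype log2 fold change in rods, -0.73 ± 0.811 (SE), with an adjusted p of 0.934 (limma), and this was 0.37 without control rods replicate 3 and -1.63 without Pkm2 Rodko rods replicate 1.

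**Figure D4:**
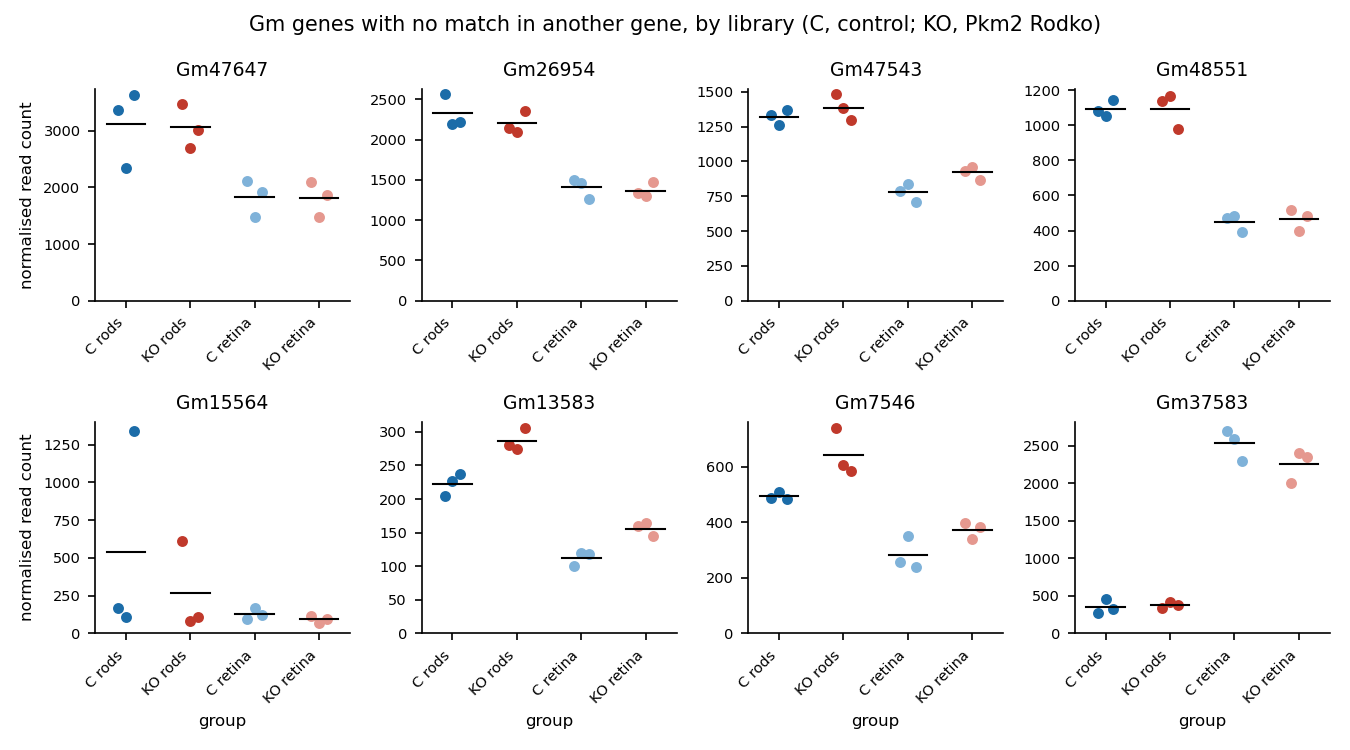
Normalised read count of 8 members without a match, with 3 libraries per group as points and the group mean as a line (C, control; KO, Pkm2 Rodko; each vertical axis starts at 0). Gm15564 has 1 high library in each rod group, Gm13583 has non-overlapping genotypes in both fractions, and Gm37583 is at 276.8 to 451.6 in rods and at 2003.3 to 2701 in retina.

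The genotype comparison asks whether loss of Pkm2 from rods changed any of these genes, and it did not use the rule. None of the 226 members passed an adjusted p of 0.05 (limma over all genes tested) in rods, in retina or in the difference of the genotype effects between rods and retina. Over all genes 4 of 20658 passed in rods (0.0194%), 1 of 25590 in retina (0.00391%) and 0 of 25584 in the difference (0%). All 226 members passed the filter on low values in each comparison. At an unadjusted p of 0.05, 8 members (6 of them mitochondrial copies) were lower and 4 higher in Pkm2 Rodko rods, beside 3.41% and 1.37% of all genes. At the same threshold 0 were lower and 6 higher in retina, beside 2.06% and 2.12%, and 4 differed in the effect between fractions, beside 4.41%. With the replicate number as a block, which pairs rods and retina, 12 members (7 lower and 5 higher) and 1650 genes had an unadjusted p under 0.05 for that difference, and none passed the adjusted threshold. edgeR and DESeq2 on the recovered reads called 0 members as well. With 3 libraries against 3, an exact permutation test of 1 gene cannot go below p = 0.1, and the absence of calls does not show that the genes are alike.

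The members' median log2 fold change in rods was 0.077 beside 0.006 over all genes and 0.04 over the other genes with a rod mean of at least 200. In retina it was 0.026, beside -0.0045 and 0.012, and it turned to -0.0085 without Pkm2 Rodko retina replicate 1 and was 0.051 without Pkm2 Rodko retina replicate 2. In rods 169 members were above 0 and 57 below, and in retina 130 were above and 96 below. The rod median was 0.031 without Pkm2 Rodko rods replicate 1 and 0.125 without Pkm2 Rodko rods replicate 3.

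All 39 Gapdh copies had a log2 fold change above 0 in rods, from 0.06 to 0.17, and none had an unadjusted p under 0.05. Gapdh itself was at 0.13 ± 0.0818 (SE) in rods and at -0.14 ± 0.0842 in retina, with adjusted p of 0.932 and 0.947. In retina 32 of the 39 copies were above 0 and 7 below. The copies share sequence with Gapdh and with each other, so they are not independent observations. The sum over the copies overlapped between the genotypes in both fractions.

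The 7 mitochondrial copies were the only group with a median well below 0 in rods, -0.50, with values from -0.58 to -0.37, and 6 of the 7 had an unadjusted p under 0.05. These copies match genes of the same mitochondrial genome and share libraries, so they are not independent observations. Gm28439 (mt-Nd4) was at 1139.2, 1763.3 and 1229.9 in control rods and at 1214.5, 656 and 922.8 in Pkm2 Rodko rods, with a log2 fold change of -0.58 ± 0.198 (SE; adjusted p = 0.932). Gm29216 (mt-Co1) had -0.50 ± 0.172 and Gm28437 (mt-Co3) -0.48 ± 0.17, each with the same adjusted p of 0.932. The genotypes overlapped for all 7, and mt-Co1 itself was at -0.53 ± 0.175. The count of 8 members with a lower value at an unadjusted p of 0.05 became 2 without control rods replicate 2 and 1 without Pkm2 Rodko rods replicate 2. Without these libraries the log2 fold change of Gm28439 was -0.39 and -0.35, that of Gm29216 -0.34 and -0.33 and that of Gm28437 -0.34 and -0.30. In retina the median of the mitochondrial copies was -0.081. Their level in rods is a small part of that in retina, and markers of several cell types other than rods had lower values in the same libraries. All 10 Mueller glia markers had a log2 fold change below 0 in rods, with a median of -0.38, and their summed TMM-scaled level ranged from 11322 to 14313 in control rods and from 9239 to 11000 in Pkm2 Rodko rods. All 10 ganglion cell markers, 9 of 10 bipolar markers, 9 of 10 amacrine markers and 8 of 10 endothelial markers were below 0 too, with medians of -0.40, -0.45, -0.49 and -0.39. The summed level overlapped between genotypes for bipolar markers (6135 to 7467 against 5456 to 7219) and ganglion cell markers (1708 to 2115 against 1186 to 1853). The medians were nearer to 0 for cone (-0.098), pigment epithelium (-0.11) and microglia (-0.089) markers. None of these markers was at 0 in all rod libraries and none passed the adjusted threshold, and their part in the result was not tested.

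The smallest p in rods belonged to Gm7546, an unmatched transcribed pseudogene antisense to BC046251. It was at 485.7, 508.5 and 483.1 in control rods and at 737, 606.7 and 584.6 in Pkm2 Rodko rods, with a log2 fold change of 0.38 ± 0.113 (SE; adjusted p = 0.932). The genotypes did not overlap in rods, and in retina, at 257.1, 348.5 and 240.2 against 395.6, 340.9 and 381.9, they did, with 0.42 ± 0.141 (adjusted p = 0.947). Gm13583, antisense to Pla2r1, was at 203.8, 226.2 and 237.8 in control rods, 279.8, 274.4 and 305 in Pkm2 Rodko rods, 100.3, 119.4 and 118.4 in control retina and 159.3, 163.7 and 145.2 in Pkm2 Rodko retina. Every Pkm2 Rodko library was above every control library in both fractions, with log2 fold changes of 0.36 ± 0.128 in rods and 0.47 ± 0.15 in retina, and neither passed the adjusted threshold (0.932 and 0.947). Gm7964, a copy of Hnrnpk, was the other member whose genotypes did not overlap in the same direction in both fractions, a pattern that 0.754% of all genes tested in both showed. It was at 650.3 ± 28.5 and 608.3 ± 9.92 in rods and at 485.6 ± 9.35 and 447.8 ± 29.7 in retina, lower in Pkm2 Rodko mice, with unadjusted p of 0.342 and 0.236 in limma's test.

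Counted by library values alone, the genotypes did not overlap in rods for 5 members that were lower and 14 that were higher in Pkm2 Rodko mice, beside 5.4% and 4.49% of all genes tested. In retina the counts were 7 lower and 10 higher, beside 4.76% and 4.53%. As shares of the 226 members these are 2.21% and 6.19% in rods and 3.1% and 4.42% in retina. Among the other genes with a rod mean of at least 200 the shares in rods were 2.32% and 6.45%, near those of the members. With scaling by total reads 9 members (3.98%) were higher in rods instead of 14, and the share of all genes tested was 3.04% instead of 4.49%.

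In retina the smallest p belonged to Gm13456, a copy of Eef1a1, at 2822.8, 3264.5 and 3603.6 in controls and at 4037.2, 4041.6 and 3740 in Pkm2 Rodko mice, a log2 fold change of 0.29 ± 0.0892 (SE; adjusted p = 0.947). Eef1a1 itself had -0.07 ± 0.0778 there. After Gm13583 and Gm7546 came the antisense transcript Gm16262 with 0.32 ± 0.113 and the lincRNA Gm47543 with 0.25 ± 0.0909, both at an adjusted p of 0.947. The genotypes did not overlap for Gm13456, Gm16262 and Gm47543 in retina, with higher values in Pkm2 Rodko mice.

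**Figure D5:**
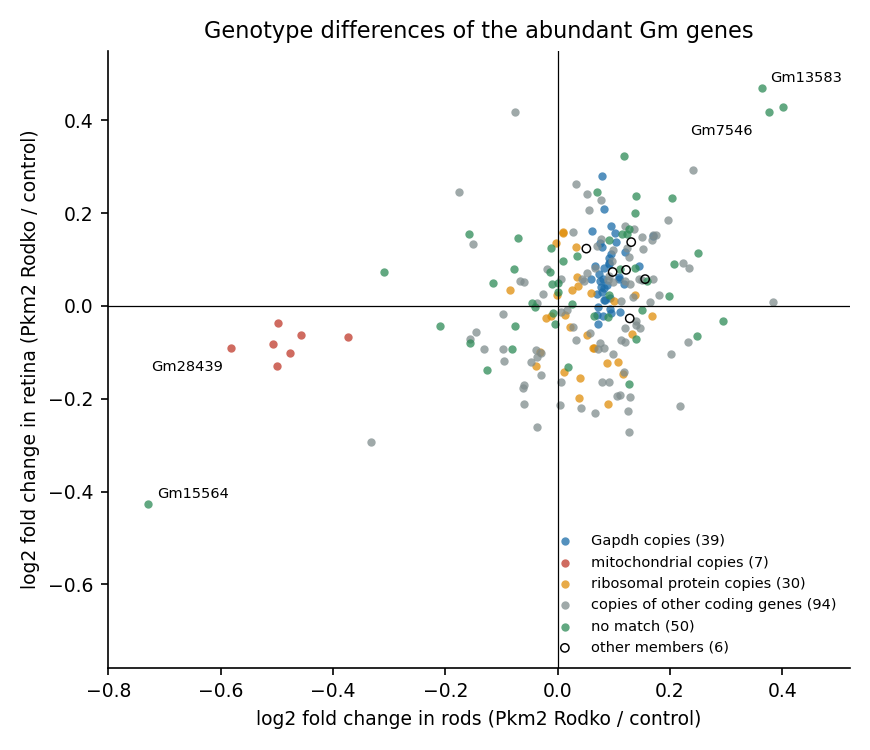
Log2 fold change between Pkm2 Rodko and control mice in rods (horizontal axis) and in retina (vertical axis), 1 point per member, coloured by the gene that it matches. No point passed the adjusted threshold on either axis, the 7 mitochondrial copies lie between -0.58 and -0.37 in rods, and Gm15564 at the lower left rests on single libraries.

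The values of the difference of the genotype effects below come from the fit of group means, which does not pair rods and retina. In that fit, 3 of the 5 smallest p belonged to copies of hnRNP genes, whose proteins bind nascent RNA. Gm12960 and Gm5641, which match Hnrnpa3, had differences of 0.44 ± 0.182 and 0.31 ± 0.13 on the log2 scale (rods minus retina), and Gm10052, which matches Hnrnpa1, had 0.41 ± 0.19, each with an adjusted p of 0.978. Gm5641 was at 672.8, 718.6 and 764.1 in control rods, 810, 723.5 and 785.8 in Pkm2 Rodko rods, 661.4, 738.6 and 660.5 in control retina and 640.3, 553.5 and 608.3 in Pkm2 Rodko retina. The genotypes overlapped for this gene in rods, and in retina the Pkm2 Rodko libraries were all lower. The difference was above 0 for all 12 hnRNP copies, of which 7 share Hnrnpa3 as the coding gene, with a median of 0.27. It was above 0 as well for all 7 chaperone, all 6 tubulin and all 4 nuclear import copies. Other groups went the other way, with values below 0 for 7 of 9 translation factor copies and 30 of the 50 members with no match. All 7 mitochondrial copies were below 0 too, with a median of -0.39. Beside these, it was above 0 for 141 of 226 members, 4612 of the 7594 other genes with a rod mean of at least 200 and 50.8% of all genes. Over the members its median was 0.032, and it was -0.0023 with scaling by total reads. Hnrnpa3 itself had a difference of 0.08 ± 0.122 and Hnrnpa1 0.21 ± 0.114. The other members among the 5 were the lincRNA Gm11754, at -0.37 ± 0.174, and Gm4739, at -0.41 ± 0.199. Gm11754 was at 337, 322.5 and 301.9 in control rods and at 262.6, 264.8 and 247.9 in Pkm2 Rodko rods, where the genotypes did not overlap, and at 221.4 ± 20.1 and 233.6 ± 32.5 in retina, where they did.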

How the data were processed

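The deposited table holds, per gene, a normalised read count for each of the 12 libraries (unit: signal). In the deposited values, reads appear divided by 1 factor per library, with each fraction scaled on its own by the authors and 1 decimal kept. The submitters' processing notes name CASAVA 1.8.2, HISAT2, DESeq2, edgeR and build GRCm39, and the counter, annotation, strand setting and treatment of reads with several alignments are not given in the sources used here. Whole reads were recovered from the deposited signal for 99.982% of values (tolerance 0.051). Library totals were 13458890 to 22790074 reads.

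Genotypes were compared with limma 3.58.1 with a variance trend on log2(value + 1), two-sided, with Benjamini-Hochberg adjustment over all genes with a mean of at least 1 in a genotype. Fold changes are on that scale and understate changes of low genes. Rods and retina were set on a common scale with TMM factors (edgeR 4.0.16) over 12 libraries, and the difference of genotype effects was fitted there. Alternatives were edgeR and DESeq2 1.42.0 on recovered reads, other scalings, filters and a pseudocount of 0.1, a replicate block and leaving out each library. Scripts were tested on simulated data. Transcripts of GENCODE vM21 were matched with blastn 2.17.0 at 90% identity over at least 50% of the length. Only matches on the same strand to genes of the deposited table counted. R 4.3.3, Python 3.11.15, numpy 2.4.6, pandas 2.3.3 and matplotlib 3.10.9 were used.

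Libraries of rods and retina with the same number and genotype deviated together (correlations of 0.145 to 0.344), so the numbers pair the fractions. The members and lists were chosen with earlier results of these data known. Genes named with values are the 12 with the highest rod mean, the 5 with the smallest p in each comparison, the 5 highest and 5 lowest ratios of rods to retina, those without overlap of genotypes in both fractions, the 3 on each side of the limit, and the genes that they match. Other genes were named after their values were seen. One matched gene and its copy are not reported here.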

Additional observations from a re-analysis of the deposited data

Results flagged for a closer look

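Gm4739, the copy of Hmgb2, and Gm12960, a copy of Hnrnpa3, were the members whose genotypes did not overlap in either fraction and lay in opposite directions, a pattern that 0.291% of all genes tested in both fractions showed. Gm4739 was at 235.8, 260.4 and 224.3 in control rods and at 221, 206.9 and 208.3 in Pkm2 Rodko rods, and at 71.1, 68.2 and 59.2 in control retina and 71.7, 80.5 and 83.5 in Pkm2 Rodko retina. The difference of its log2 fold changes (rods minus retina) was -0.4141 (adjusted p = 0.978, limma), while Hmgb2 had a difference of -0.0026. Gm12960 was at 170.4, 187.5 and 207 in control rods and at 219, 207.9 and 228.9 in Pkm2 Rodko rods, and at 195.8, 220.6 and 184.4 in control retina and 179.3, 153.7 and 184.1 in Pkm2 Rodko retina. The nearest libraries of the genotypes were close for Gm12960, 207 against 207.9 in rods and 184.4 against 184.1 in retina. They were close for Gm4739 too, 224.3 against 221 in rods and 71.1 against 71.7 in retina. The difference for Gm12960 was 0.4411 (adjusted p = 0.978, limma). Neither difference passed the adjusted threshold.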

How the results depend on the processing

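No member was called in any of the 47 alternatives for the genotype comparisons. The 15 genotype values named for the smallest p (5 in each comparison) kept their direction in all 235 of theirs. They were chosen by p in the same libraries, so a kept direction was likely beforehand and is no separate support. Gm15564, named for other reasons, turned from -0.73 to 0.37 in rods without control rods replicate 3. The smallest adjusted p of a member ranged from 0.327 to 0.999 in rods, from 0.302 to 1 in retina and from 0.553 to 1 in the difference, and leaving out 1 library gave 0 members called each time. With the replicate number as a block, 0 members were called in rods, retina or the difference, and the smallest adjusted p were 0.983, 0.976 and 0.736. Control and Pkm2 Rodko libraries with the same number did not deviate together (correlations from -0.227 to 0.071), so between genotypes they share only a number. The median log2 ratio of rods to retina was 0.126 with scaling by total reads and 0.081 with the deposited values, and between 0.649 and 0.713 without 1 control library. The median of ribosomal protein copies turned to -0.22 and -0.26 under those scalings. There were 403 members with a mean of at least 100, 104 with at least 400, and 223 to 227 without 1 rod library. The retina median was 0.052 over members with no match. Counts of non-overlapping genotypes under other scalings and the values without single libraries for Gm15564 were added after the data were seen. With TMM scaling 6 members (2.65%) were higher in retina, beside 4.05% of all genes tested.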
